A study of Rattus norvegicus with 12 samples.

Results

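The transcripts of translation initiation and elongation factors were followed through depolarization of rat midbrain cultures. Members were all genes of the array whose only annotated symbol began with Eif or Eef followed by a digit, which gave 56 genes with 66 probe sets among 10411 genes with a single symbol. Of these, 52 encode factors or their regulators and 4 encode the kinases of eIF2, which are described apart. Each gene was taken at the probe set with the highest mean over 12 arrays, and the other probe sets of 8 genes are given where those genes are described. Another 4 probe sets, for Eif5 and Eif3e together with a related gene, carried several symbols and were left out.

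Protein synthesis starts when the cap-binding factor eIF4E, the scaffold eIF4G and the helicase eIF4A recruit a messenger RNA to a small ribosomal subunit that carries eIF3 and initiator tRNA on eIF2. eIF2 needs its exchange factor eIF2B for each round, and phosphorylation of eIF2 by a stress kinase blocks that exchange. Elongation then depends on eEF1A, which brings aminoacyl-tRNA, and on eEF2, which moves the ribosome along and is inhibited by the calcium- and calmodulin-dependent eEF2 kinase; in neurons these steps are known points at which activity and calcium act on translation.

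The cultures came from ventral midbrain of CD1 rat embryos at day 12, expanded for 6 days with Sonic hedgehog at 50 ng/ml plus bFGF at 20 ng/ml and kept for 3 days without these factors. Depolarized cultures received 56 mM KCl for 2 h and were collected 30 min or 2 h after its end, and the controls of each collection time stayed in control medium. Each of the 4 groups held 3 arrays, numbered 1 to 3 at 30 min and 4 to 6 at 2 h, and embryos of 4 pregnant rats had been mixed into 3 groups treated separately. RNA of duplicate cultures was pooled, so spread between arrays is spread between pooled cultures and not between animals. Values are log2 expression, each difference (log2) comes with its standard error (SE) from a limma fit to all 12 arrays, and a change is called at an adjusted p under 0.05 over all 15866 probe sets tested.

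Array medians lay between 8.33 and 8.43. The depolarization label held for the 5 activity genes checked (Fos, Arc, Egr1, Nr4a1 and Bdnf), which all rose at both collection times, Fos by 4.06 and 3.39. Of 46 cell type markers 3 rose and 2 fell with depolarization at 30 min (10.9%, against 24.0% of all probe sets), and 5 rose and 3 fell at 2 h (17.4%, against 25.2%). Among 9 neuronal markers Nefm rose at both times (0.65 and 0.39) and Nefl at 2 h (0.43), and the array means were 10.35 to 10.58 in the 30 min controls against 10.60 to 10.71 in depolarized arrays, and 11.47 to 11.51 against 11.47 to 11.53 at 2 h. Among 5 oligodendrocyte-lineage markers Pdgfra fell at both times (-0.58 and -0.75). The array means of the list were lower after depolarization, at 8.53 to 8.58 against 8.67 to 8.78. The later collection gave 7.86 to 7.91 against 7.98 to 8.10. Cspg4, Olig1, Sox10 and Mbp did not pass at either time. Their differences were -0.05, -0.2, 0.0 and -0.03 in the earlier collection. In the later one they were -0.03, 0.05, -0.01 and 0.04, so the lower mean there rests on Pdgfra. The median difference of the list was -0.052 and then -0.007. Of 7 markers of dividing progenitors 0 passed at 30 min by limma (1 at an unadjusted p under 0.05, 0 by an ordinary equal-variance test), while at 2 h Sox2 rose (0.31) and Top2a fell (-0.33). Of the remaining lists, Nr4a2, a dopaminergic marker that also responds to activity, rose at both times (0.87 and 0.26), Slc18a2 rose at 2 h (0.31), Cd68 of microglia rose at 30 min (0.38) and Pdgfrb of mural cells fell at both times (-0.34 and -0.24). The part of these markers in the responses of the factors was not tested. The cultures are described as enriched for dopaminergic neurons; over the 12 arrays the defining gene Th read 7.39 to 8.22 and Ddc 8.27 to 10.18, and without detection calls these readings do not tell presence from background. In bulk RNA, fewer cells of a type and less RNA per cell cannot be told apart.

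Promoter sequences from RefSeq (build GRCr8), covering 250 bases before to 50 bases after the annotated start, matched 51 of the 56 members. The E-box CACGTG, a palindrome bound by MYC and related factors, was present in 21.6% of them (11 of 51), compared with 6.4% of all 33465 promoters and 9.1% of the 8610 promoters of genes on the array. The members with it were Eef1akmt4, Eef2, Eef2k, Eif1b, Eif3a, Eif3b, Eif3f, Eif4e, Eif4g1, Eif4h and Eif5a. Stretches upstream of the start are shown for members that rose after depolarization, with the E-box in capitals.
Eif4e (chr2:229740503-229740692, plus strand): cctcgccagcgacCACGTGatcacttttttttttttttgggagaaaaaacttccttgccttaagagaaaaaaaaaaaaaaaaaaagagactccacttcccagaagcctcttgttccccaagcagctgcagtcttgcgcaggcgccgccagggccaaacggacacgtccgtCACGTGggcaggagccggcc
Eif3b (chr12:19334769-19334888, minus strand): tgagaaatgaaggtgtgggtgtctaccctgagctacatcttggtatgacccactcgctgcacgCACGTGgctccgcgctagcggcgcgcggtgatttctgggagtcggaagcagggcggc
Eif4h (chr12:27719492-27719611, plus strand): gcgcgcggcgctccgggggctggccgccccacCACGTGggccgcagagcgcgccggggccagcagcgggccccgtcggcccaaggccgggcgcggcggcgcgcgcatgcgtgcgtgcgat
Counted from the start, the E-box began at -237 and -80 in Eif4e, at -57 in Eif3b and at -168 in Eif4h. A link between the motif and the response was not tested. Of the 11 genes with it 3 rose and 1 fell at 30 min, and of the 40 without it 4 rose and 4 fell, where 10.8% of all probe sets rose and 13.1% fell. At 2 h 2 of the 11 rose and 1 fell, and 2 of the 40 rose and 4 fell, where 9.51% of all probe sets rose and 15.7% fell.

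The other motifs searched on both strands were found in at most 4 member promoters each. The cyclic AMP response element TGACGTCA was in 2.0% of member promoters, that of Eef2, against 1.8% of all promoters and 2.8% of those of genes on the array. The composite element TGATGNAA, known for ATF4 with C/EBP proteins, was in 2.0%, that of Eif2s2, against 4.0% and 2.2%. The AP-1 motif TGANTCA was in 7.8% (4 of 51) against 7.3% and 5.6%. A terminal oligopyrimidine start, a C followed by at least 4 pyrimidines, was in 0 of 51 at the annotated start, against 2.6% of either background. Only the annotated start was examined, so a transcript that begins at another base would be missed. The count therefore does not show that these transcripts lack such a start. No matches of the searched motifs overlapped. The stretches of Eif2s2, which rose at 2 h, and of Eef2, which did not pass the test at either time, are shown with their motifs in capitals.
Eif2s2 (chr3:163855571-163855690, minus strand): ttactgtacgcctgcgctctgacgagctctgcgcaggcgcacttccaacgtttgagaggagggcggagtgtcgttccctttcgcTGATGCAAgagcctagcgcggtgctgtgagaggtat
Eef2 (chr7:9189239-9189358, minus strand): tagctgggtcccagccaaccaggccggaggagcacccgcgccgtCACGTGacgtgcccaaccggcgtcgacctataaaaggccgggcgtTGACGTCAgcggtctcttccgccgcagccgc
The element TGATGNAA began at -36 in Eif2s2, and in Eef2 the E-box began at -76 and the cyclic AMP response element at -31. A match is a description of the letters only.

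At 30 min after depolarization 7 of the 52 factors rose and 4 fell, and the rises were led by Eif4enif1, Eif3b, Eif4e, Eif5b and the helicase gene Eif4a1, with Eif4a3 and Eif4h after them. The falls were Eif3d, Eif1ad, Eif2b1 and the eEF1A methyltransferase gene Eef1akmt4. All but Eif4enif1 changed by at most 0.37 log2 units. The called share was 21.2%, against 24.0% of all probe sets, and the median difference was 0.019 against 0.014, so neither the count nor the median of the factors stood far from the whole array. Most factors were bright, however. With the dimmest 50% of probe sets left out, 12 of 48 factors were called, against 2817 of 7933 probe sets. Beside such brighter probe sets the factors were called less often. Rises were 13.5% of factors against 10.8% of all probe sets, and falls 7.7% against 13.1%. In 11 of the 52 factors the 3 depolarized arrays lay wholly above the 3 controls and in 8 of 52 wholly below, against 17.9% and 18.9% of all probe sets. The split of calls depended on scaling: 12 rose and 3 fell after median centring of the arrays, and 5 rose and 5 fell after quantile normalization.

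**Figure D1:**
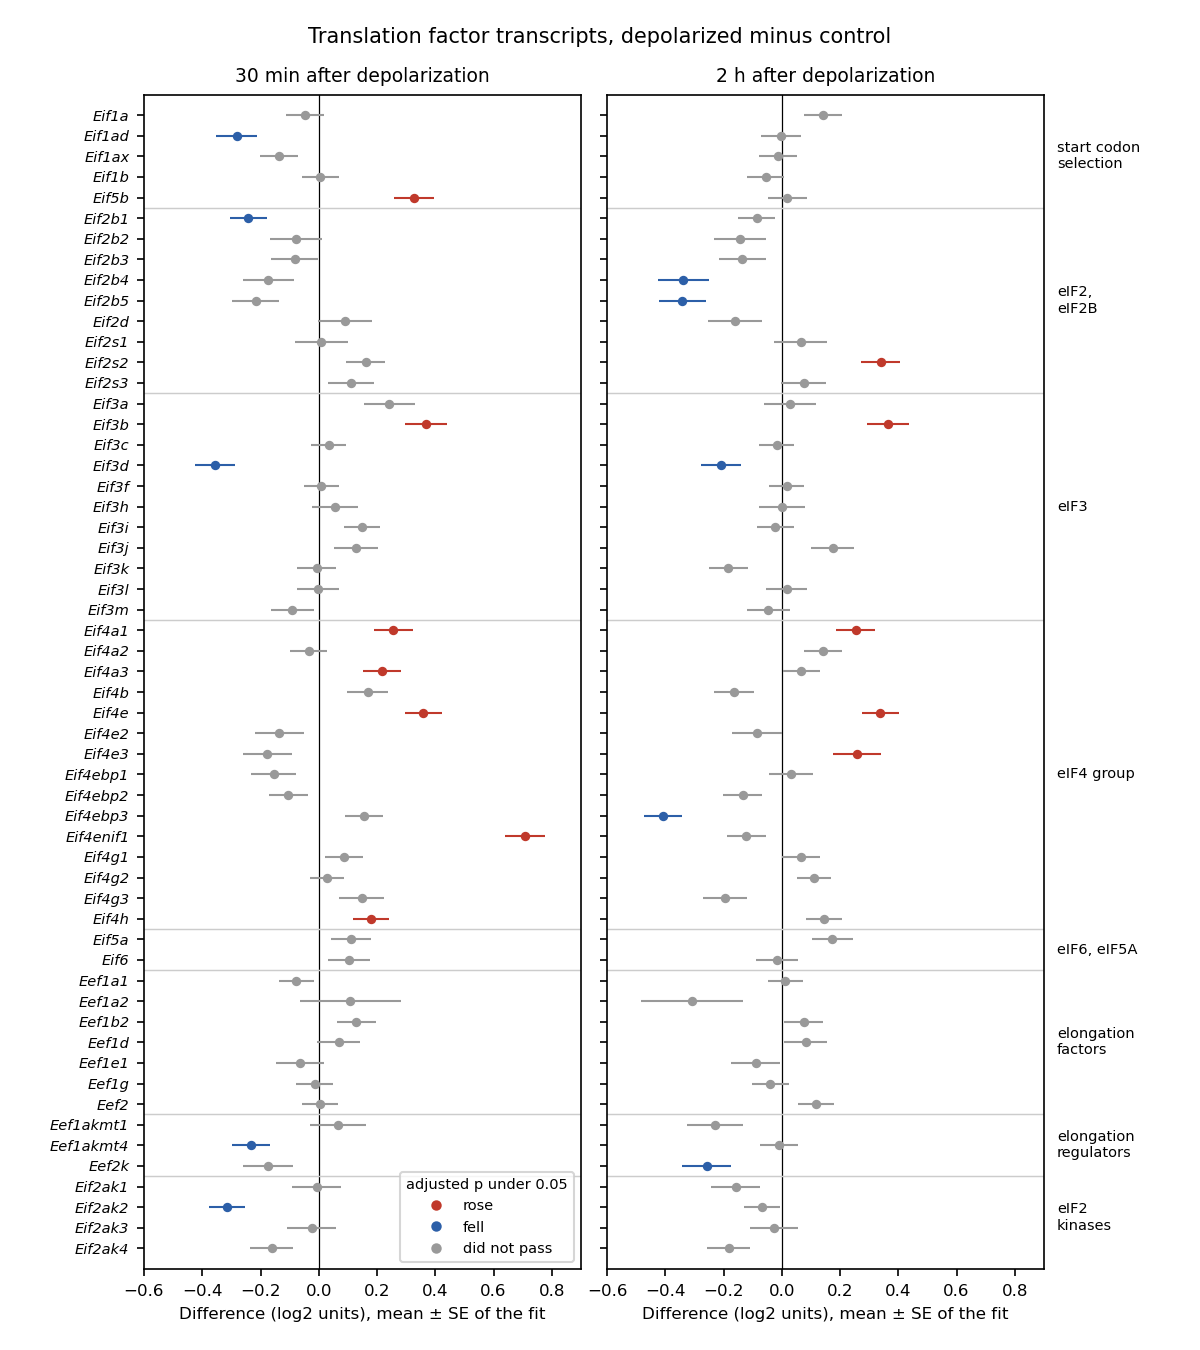
Differences between depolarized and control arrays (log2 units, point with SE of the fit) for 56 genes grouped by role, at 30 min on the left and 2 h on the right; red and blue points passed the test as rises and falls, grey points did not. Eif4enif1 stands alone at 0.71 at 30 min and lies at -0.12 at 2 h, while Eif4e, Eif3b and Eif4a1 are red in both panels and the 7 elongation factors are grey in both.

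Of the 15 genes of the eIF4 group, 5 rose and 0 fell at 30 min, where 10.8% of all probe sets rose and 13.1% fell. At 2 h 3 of the 15 rose and 1 fell, where 9.51% of all probe sets rose and 15.7% fell. A list of 15 genes gives no precise share. Eif4enif1 encodes the eIF4E transporter, a protein that binds eIF4E, carries it into the nucleus and is found in processing bodies. Its control arrays read 9.67, 9.64 and 9.65 and its depolarized arrays 10.30, 10.33 and 10.46. The depolarized arrays lay far above the controls, with a difference of 0.71 (SE 0.068, 1.63-fold, adjusted p = 1.25e-06 by limma), and the call held without any single array. By 2 h the depolarized arrays read 9.69, 9.52 and 9.74 against 9.73, 9.80 and 9.78 in controls, which overlapped (-0.12, adjusted p = 0.219).

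Eif4e, the gene of the cap-binding protein itself whose promoter stretch is shown above, rose at both times. At 30 min it read 11.37, 11.52 and 11.50 in controls and 11.84, 11.80 and 11.83 in depolarized arrays. At 2 h it read 11.38, 11.30 and 11.42 in controls and 11.77, 11.69 and 11.65 in depolarized arrays. The groups did not overlap at either time, and the differences of 0.36 (SE 0.064, adjusted p = 0.000529) and 0.34 (SE 0.064, adjusted p = 0.00116) held without any single array. The dimmer probe set of Eif4e, with a mean of 7.93 over the 12 arrays, did not follow: its differences were -0.02 (adjusted p = 0.856) and -0.07 (adjusted p = 0.474).

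Eif4a1 encodes the RNA helicase of the cap-binding complex. Controls read 12.77, 12.86 and 12.78 and depolarized arrays 13.07, 13.03 and 13.07 at 30 min, which were apart (0.25, SE 0.067, adjusted p = 0.01). At 2 h controls read 12.74, 12.61 and 12.68 and depolarized arrays 13.02, 12.80 and 12.98, again apart (0.25, adjusted p = 0.0107). The 2 h call was lost without control replicate 5 or depolarized replicate 4, with adjusted p up to 0.0624. Its close relative Eif4a2 gave -0.04 at 30 min (adjusted p = 0.783) and 0.14 at 2 h (adjusted p = 0.132).

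Eif4a3, the helicase of the exon junction complex, read 11.25, 11.34 and 11.25 in the 30 min controls and 11.45, 11.50 and 11.55 in depolarized arrays. The groups were apart (0.22, SE 0.064, adjusted p = 0.0202), but the call was lost without control replicate 1 or 3 or depolarized replicate 2 or 3, with adjusted p up to 0.0773, and under quantile normalization (adjusted p = 0.0512). Eif4h, a helper of the eIF4A helicase, read 12.41, 12.33 and 12.38 in controls and 12.51, 12.54 and 12.61 in depolarized arrays at 30 min. These were apart too (0.18, SE 0.061, adjusted p = 0.0418), and the call was lost without 6 of the 12 arrays in turn: control replicates 1, 2, 3 and 4 and depolarized replicates 2 and 3, with adjusted p up to 0.146. It was also lost under quantile normalization (0.0896), after removal of a loess trend (0.0539) and with only the arrays compared (0.0553).

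The remaining eIF4 genes did not pass at 30 min. The scaffold gene Eif4g1 read 10.71, 10.77 and 10.83 in controls and 10.91, 10.80 and 10.87 in depolarized arrays, which overlapped (0.09, adjusted p = 0.422), and its dimmer probe set gave 0.16 (adjusted p = 0.229). At 2 h Eif4g1 read 10.97, 10.95 and 10.86 in controls and 11.04, 10.88 and 11.04 in depolarized arrays, overlapping again (0.07, adjusted p = 0.529). For Eif4g2, a scaffold that lacks the eIF4E-binding part, the brighter probe set gave 0.03 (adjusted p = 0.807), whereas the dimmer one gave 0.29 (adjusted p = 0.00372) with the groups apart; at 2 h they gave 0.11 (adjusted p = 0.199) and 0.13 (adjusted p = 0.169).

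The genes of the eIF4E-binding proteins, repressors that compete with eIF4G for eIF4E, did not pass at 30 min. Eif4ebp1, the well-studied mTORC1 target, read 9.70, 9.63 and 9.64 in the 30 min controls and 9.47, 9.55 and 9.49 in depolarized arrays. The depolarized arrays lay below the controls, but the difference of -0.16 (SE 0.076) did not pass (adjusted p = 0.175), and at 2 h, with 9.34, 9.29 and 9.43 against 9.33, 9.26 and 9.57, the groups overlapped (0.03, adjusted p = 0.813). Eif4ebp2 gave -0.11 and -0.14, with adjusted p = 0.321 and 0.164. Eif4ebp3 is described with the 2 h changes.

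In eIF3, the scaffold that joins the small ribosomal subunit to the eIF4 factors, 1 of 11 measured subunits rose and 1 fell at each time, and they were the same genes, Eif3b and Eif3d. Over all probe sets 10.8% rose and 13.1% fell at 30 min, and 9.51% rose and 15.7% fell at 2 h. Eif3b, the core subunit whose promoter stretch with an E-box is shown above, read 10.86, 10.81 and 10.85 in the 30 min controls and 11.24, 11.17 and 11.22 in depolarized arrays. At 2 h it read 10.71, 10.71 and 10.65 in controls and 11.13, 10.87 and 11.15 in depolarized arrays. The groups were apart at both times, with differences of 0.37 (SE 0.072, adjusted p = 0.00106) and 0.36 (SE 0.072, adjusted p = 0.00147) that held without any single array.

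Eif3d, a subunit with a cap-binding activity of its own, moved the other way. It read 11.36, 11.32 and 11.40 in the 30 min controls and 10.88, 11.05 and 11.08 in depolarized arrays. At 2 h the readings were 11.38, 11.22 and 11.27 against 11.13, 11.06 and 11.06. All depolarized arrays lay below the controls of their time, with differences of -0.36 (SE 0.068, adjusted p = 0.000931) and -0.21 (SE 0.068, adjusted p = 0.0332). The 30 min call held without any single array, whereas the 2 h call was lost without control replicate 4 or any of depolarized replicates 4, 5 and 6, with adjusted p up to 0.15, and after median centring (adjusted p = 0.102). The other 9 subunits differed by -0.18 to 0.24 and did not pass at either time, Eif3a coming closest at 30 min (0.24, adjusted p = 0.0584) and Eif3k at 2 h (-0.18, adjusted p = 0.0564).

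Among the 5 genes linked to start codon selection and subunit joining, Eif5b rose and Eif1ad fell at 30 min. Over all probe sets 10.8% rose and 13.1% fell. Eif5b, the GTPase that joins the large ribosomal subunit, read 9.48, 9.43 and 9.57 in controls and 9.78, 9.80 and 9.88 in depolarized arrays, which were apart (0.33, SE 0.067, adjusted p = 0.00169). At 2 h it read 9.75, 9.56 and 9.55 against 9.66, 9.61 and 9.65, and the groups overlapped (0.02, adjusted p = 0.881). Eif1ad, which encodes a protein with an eIF1A-like domain, read 9.75, 9.69 and 9.70 in controls and 9.29, 9.46 and 9.54 in depolarized arrays at 30 min, again apart (-0.28, SE 0.07, adjusted p = 0.00676). Both 30 min calls held without any single array. At 2 h Eif1ad overlapped with its controls, at 9.61, 9.57 and 9.44 against 9.55, 9.52 and 9.57 (adjusted p = 0.983).

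Of 9 genes of eIF2, eIF2B and the related Eif2d, 0 rose and 1 fell at 30 min, and 1 rose and 2 fell at 2 h. Over all probe sets 10.8% rose and 13.1% fell at 30 min, and 9.51% rose and 15.7% fell at 2 h. All 5 eIF2B subunits lay below 0 at both times, under the deposited scaling, median centring, quantile normalization and removal of a loess trend. These scalings reuse the same arrays, and at 2 h the subunit nearest 0 lay at -0.01 after removal of the loess trend. By the test 1 of the 5 fell at 30 min and 2 at 2 h, where 13.1% and 15.7% of all probe sets fell. The median over all probe sets was 0.014 and -0.001, and a list of 5 genes gives no precise share. The fall at 30 min was in Eif2b1, the regulatory alpha subunit, with 9.40, 9.37 and 9.37 in controls against 9.17, 9.06 and 9.18 in depolarized arrays, which were apart. Its difference of -0.24 (SE 0.063, adjusted p = 0.00927) was lost as a call without depolarized replicate 2 (adjusted p = 0.0546), and at 2 h, with 9.33, 9.42 and 9.28 against 9.32, 9.18 and 9.27, the groups overlapped (-0.09, adjusted p = 0.355).

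At 2 h the falls were in Eif2b4 and Eif2b5, which encode the delta and the catalytic epsilon subunit. Eif2b4 read 10.43, 10.30 and 10.20 in controls and 9.97, 9.99 and 9.96 in depolarized arrays (-0.34, SE 0.087, adjusted p = 0.00909). Eif2b5 read 8.94, 8.82 and 8.75 in controls and 8.54, 8.39 and 8.55 in depolarized arrays (-0.34, SE 0.08, adjusted p = 0.00496). In both genes the groups were apart, and the second probe set of Eif2b5 fell as well (-0.39, adjusted p = 0.00214). Leaving out control replicate 4 ended the call of Eif2b4 (adjusted p = 0.0521), and that of Eif2b5 held without any single array. At 30 min the differences of Eif2b4 and Eif2b5 were -0.17 (adjusted p = 0.187) and -0.22 (adjusted p = 0.0614), and those of Eif2b2 and Eif2b3 were -0.08 each, then -0.14 each at 2 h.

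Of the eIF2 trimer, the beta subunit gene Eif2s2 rose at 2 h. Controls read 11.34, 11.40 and 11.34 and depolarized arrays 11.83, 11.67 and 11.61, which were apart (0.34, SE 0.066, adjusted p = 0.00132), and the call held without any single array. At 30 min the readings were 11.66, 11.56 and 11.67 against 11.80, 11.78 and 11.78, apart as well but not past the threshold (0.16, adjusted p = 0.0948). Over the same interval the controls fell by 0.27 (adjusted p = 0.00473), while the depolarized means were 11.79 at 30 min and 11.70 at 2 h, and the difference between the responses did not pass (0.18, adjusted p = 0.254). The alpha subunit gene Eif2s1, whose protein is the one phosphorylated by the eIF2 kinases, read 11.28, 10.96 and 11.14 in the 30 min controls and 11.01, 11.20 and 11.20 in depolarized arrays. At 2 h it read 10.93, 10.86 and 10.93 against 11.14, 10.84 and 10.93, and the groups overlapped at both times (0.01 and 0.06, adjusted p = 0.965 and 0.671). Eif2s3, the gamma subunit gene, gave 0.11 and 0.08, with adjusted p = 0.383 and 0.542.

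**Figure D2:**
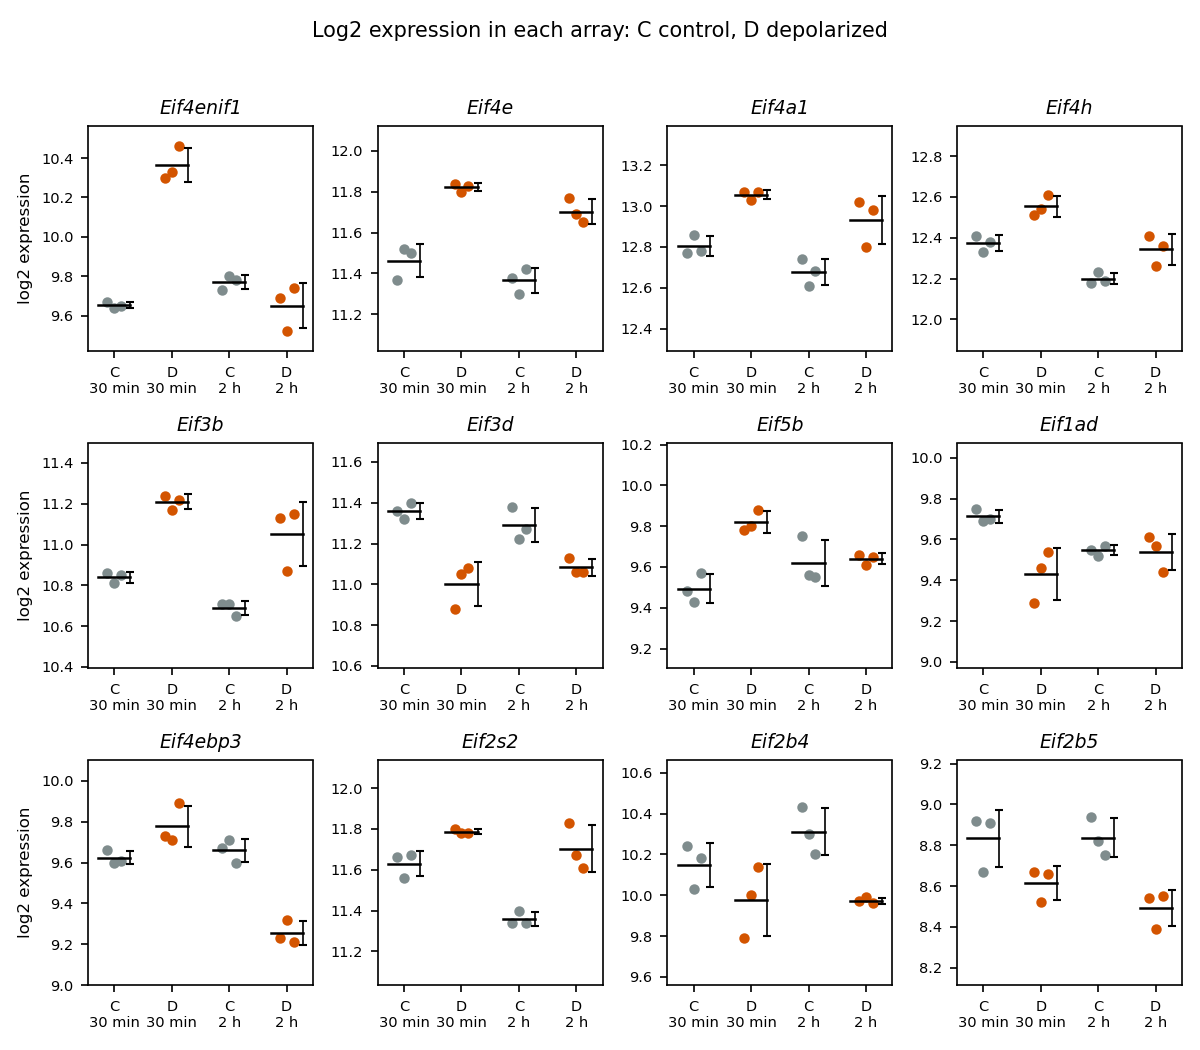
Log2 expression in each of the 12 arrays for 12 members (points), with group mean (line) and SD (bar, n = 3), controls in grey and depolarized arrays in orange; each panel has its own vertical scale. Eif4enif1 is high in the 30 min depolarized arrays, 10.30 to 10.46 against 9.64 to 9.67, and Eif4ebp3 is low in the 2 h depolarized arrays, 9.21 to 9.32 against 9.60 to 9.71.

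At 2 h after depolarization 5 of the 52 factors rose (Eif3b, Eif2s2, Eif4e, Eif4e3 and Eif4a1) and 5 fell (Eif4ebp3, Eif2b5, Eif2b4, Eef2k and Eif3d). The called share was 19.2%, against 25.2% of all probe sets, with rises in 9.6% of factors against 9.51% and falls in 9.6% against 15.7%. With the dimmest 50% of probe sets left out, 10 of 48 factors were called, against 2943 of 7933 probe sets, which is a larger share. The median difference was -0.007, against -0.001 over all probe sets. In 12 of the 52 factors the depolarized arrays lay wholly above the controls and in 9 of 52 wholly below, against 15.4% and 22.1% of all probe sets. The count of 10 changed factors dropped to 6 without control replicate 4 and to 6 without depolarized replicate 4, and after median centring 9 rose and 3 fell.

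Eif4ebp3, the gene of the third eIF4E-binding protein, had the largest fall of the 52 factors at 2 h. Controls read 9.67, 9.71 and 9.60 and depolarized arrays 9.23, 9.32 and 9.21. The groups were far apart (-0.41, SE 0.065, adjusted p = 0.000264), and the call held without any single array. At 30 min the order was the reverse, with 9.66, 9.60 and 9.61 in controls and 9.73, 9.71 and 9.89 in depolarized arrays, but the difference of 0.15 did not pass (adjusted p = 0.105).

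Eif4e3 encodes a further member of the eIF4E family. Its 2 h controls read 7.71, 7.63 and 7.77 and its depolarized arrays 7.91, 7.98 and 8.0, which were apart (0.26, SE 0.083, adjusted p = 0.0317). The call was lost without any of control replicates 4 and 5 and depolarized replicates 4, 5 and 6, with adjusted p up to 0.127, and under quantile normalization (0.0604), removal of a loess trend (0.071) and an ordinary equal-variance test (0.0811). At 30 min, with 7.40, 7.58 and 7.35 against 7.08, 7.37 and 7.35, the groups overlapped (-0.18, adjusted p = 0.155). The remaining family member, Eif4e2, gave -0.13 and -0.09 (adjusted p = 0.316 and 0.522).

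Of the 7 elongation factor genes, 0 rose and 0 fell at either time by limma, where 24.0% and 25.2% of all probe sets were called. At an unadjusted p under 0.05 the count was 0 at both times, as it was by an ordinary equal-variance test. A list of 7 genes gives no precise share. Eef1a1, the main gene of the tRNA-delivering factor, read 13.97, 14.06 and 13.99 in the 30 min controls and 13.90, 13.96 and 13.93 in depolarized arrays (-0.08, 95% interval -0.20 to 0.05). At 2 h it read 13.95, 13.94 and 13.92 against 13.99, 14.00 and 13.86 (0.01, 95% interval -0.11 to 0.14). The depolarized arrays lay just below the controls at 30 min and overlapped with them at 2 h, and the second probe set, which may also match related transcripts, gave -0.10 and 0.06. Eef2, the translocation factor gene, read 12.89, 12.97 and 12.86 against 12.89, 12.94 and 12.90 at 30 min (0.00, 95% interval -0.13 to 0.14) and 12.69, 12.76 and 12.66 against 12.78, 12.75 and 12.91 at 2 h (0.12, 95% interval -0.02 to 0.25). These intervals leave room for changes of up to 0.25 log2 units in Eef2 at 2 h. The control mean of Eef2 was 12.91 at 30 min and 12.70 at 2 h, and the depolarized means were 12.91 and 12.82.

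Of 3 regulators of elongation factors, 1 fell at 30 min and another fell at 2 h, where 13.1% and 15.7% of all probe sets fell. Eef2k, the gene of the eEF2 kinase, read 8.86, 8.59 and 8.76 in the 2 h controls and 8.44, 8.49 and 8.50 in depolarized arrays, which were apart (-0.26, SE 0.085, adjusted p = 0.036). The call was lost without any of control replicates 4 and 6 and depolarized replicates 4, 5 and 6 (adjusted p up to 0.168), and under each other scaling: median centring (0.0786), quantile normalization (0.0904) and removal of a loess trend (0.104). At 30 min Eef2k read 8.81, 8.91 and 9.11 against 8.88, 8.71 and 8.71, overlapping (-0.17, adjusted p = 0.171). Its other 3 probe sets gave -0.26, -0.30 and 0.03 at 30 min, of which the middle one passed (adjusted p = 0.0108), and -0.29, -0.06 and -0.04 at 2 h, of which 0 passed.

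Eef1akmt4, which encodes a lysine methyltransferase of eEF1A, read 7.27, 7.30 and 7.29 in the 30 min controls and 7.16, 7.05 and 6.96 in depolarized arrays. The groups were apart (-0.23, SE 0.065, adjusted p = 0.0147), and the call was lost without control replicate 2 or depolarized replicate 3, with adjusted p up to 0.0763, and after median centring (0.0562). At 2 h the readings of 7.25, 7.11 and 7.21 against 7.17, 7.23 and 7.13 overlapped (-0.01, adjusted p = 0.928). The genes of eIF6, which keeps ribosomal subunits apart, and of the hypusine-bearing eIF5A did not pass at either time, Eif5a coming closest at 2 h (0.17, adjusted p = 0.087).

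The eIF2 kinases sense different stresses: Eif2ak1 (HRI) haem shortage, Eif2ak2 (PKR) double-stranded RNA, Eif2ak3 (PERK) unfolded protein in the endoplasmic reticulum and Eif2ak4 (GCN2) amino acid shortage. At 30 min 1 of the 4 fell, Eif2ak2, where 13.1% of all probe sets fell. At 2 h 0 rose and 0 fell by limma, where 25.2% of all probe sets were called. The 2 h count was 1 of 4 at an unadjusted p under 0.05 and 0 by the ordinary test. Eif2ak2 read 6.67, 6.75 and 6.72 in the 30 min controls and 6.42, 6.43 and 6.34 in depolarized arrays, which were apart (-0.32, SE 0.063, adjusted p = 0.00139), and the call held without any single array. At 2 h it read 6.68, 6.56 and 6.53 against 6.44, 6.56 and 6.55, and the groups overlapped (-0.07, adjusted p = 0.488). The mean of Eif2ak2 over the 12 arrays was 6.55, below the array medians of 8.33 to 8.43. Without detection calls such a low reading does not tell presence from background.

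Eif2ak3 did not differ beyond its spread, with 8.57, 8.57 and 8.66 against 8.47, 8.59 and 8.67 at 30 min and 8.69, 8.41 and 8.78 against 8.61, 8.55 and 8.63 at 2 h (95% intervals of the difference -0.20 to 0.15 and -0.21 to 0.15). Eif2ak4 read 8.20, 7.99 and 7.96 in controls and 7.87, 7.92 and 7.87 in depolarized arrays at 30 min, then 8.21, 8.05 and 8.21 against 8.03, 8.0 and 7.90 at 2 h. Its depolarized arrays lay below the controls at both times, but neither difference passed (-0.16, adjusted p = 0.142 and -0.18, adjusted p = 0.0845). Eif2ak1 read 9.88, 9.78 and 10.12 against 9.90, 9.87 and 9.99 at 30 min and 10.09, 10.10 and 9.91 against 9.79, 9.92 and 9.91 at 2 h, overlapping at both (-0.01 and -0.16, adjusted p = 0.971 and 0.196). Its dimmer probe set, with 9.71, 9.71 and 9.61 in controls and 9.38, 9.49 and 9.49 in depolarized arrays at 2 h, passed (-0.22, adjusted p = 0.0398), so the probe sets of Eif2ak1 disagree in call though not in sign.

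**Figure D3:**
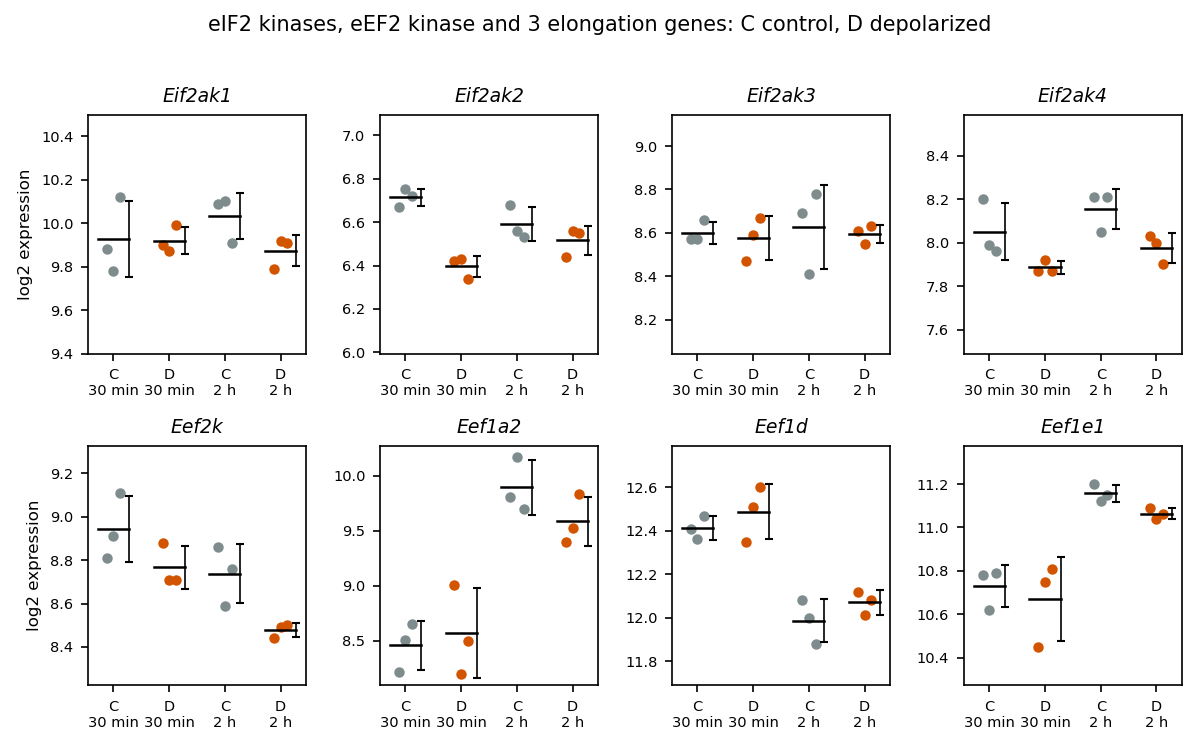
Log2 expression in each of the 12 arrays for the 4 eIF2 kinases, eEF2 kinase and 3 elongation genes (points), with group mean (line) and SD (bar, n = 3), controls in grey and depolarized arrays in orange; each panel has its own vertical scale. Eif2ak2 is low in the 30 min depolarized arrays (6.34 to 6.43 against 6.67 to 6.75), and Eef1a2, Eef1d and Eef1e1 are apart by collection time under both treatments.

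The responses at 30 min and 2 h share no arrays, and the difference between them was tested for each factor. In 6 of 52 factors, 11.5% against 13.0% of all probe sets, the response at 2 h differed from that at 30 min, 1 being higher and 5 lower (1.9% and 9.6%, against 6.16% and 6.79%). Eif4enif1 had the largest difference (-0.83, SE 0.096, adjusted p = 3.58e-05), followed by Eif4ebp3 (-0.56, SE 0.091, adjusted p = 0.000655), and both held without any single array. The others were near the threshold: Eif4g3 (-0.34, adjusted p = 0.0467), Eif4b (-0.33, adjusted p = 0.0373), Eif5b (-0.31, adjusted p = 0.0433) and Eif4e3 (0.43, adjusted p = 0.0216). Eif5b lies outside the rule for named genes here and was named after its value was seen.

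Eif4b encodes an activator of eIF4A. It read 10.66, 10.75 and 10.70 in controls and 10.98, 10.77 and 10.86 in depolarized arrays at 30 min, then 10.58, 10.65 and 10.59 against 10.46, 10.33 and 10.54 at 2 h. The depolarized arrays thus lay above the controls at 30 min and below them at 2 h, though neither difference passed alone (0.17 and -0.16, adjusted p = 0.104 each). At its dimmer probe set the responses differed by -0.04 (adjusted p = 0.888). Eif4g3, a scaffold related to Eif4g1, read 9.93, 9.97 and 10.08 against 10.15, 10.04 and 10.23 at 30 min and 10.48, 10.45 and 10.23 against 10.23, 10.15 and 10.20 at 2 h. Its groups overlapped at both times, and its controls rose by 0.39 between collections.

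The count of 6 fell to 3 without each of control replicates 1, 2, 4 and 5 and depolarized replicates 4 and 5. Without 1 array in turn the calls of Eif4g3 and Eif4b were each lost in 9 of 12 cases (adjusted p up to 0.117 and 0.0885), that of Eif5b in 8 (up to 0.113) and that of Eif4e3 without control replicate 2 or 5 (up to 0.0643). The split of 1 higher and 5 lower became 3 and 3 after quantile normalization and 2 and 3 after removal of a loess trend.

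The controls themselves differed between collection times, and labels do not say whether both times came from a single preparation, so collection time and preparation cannot be told apart. Of the 52 factors, 6 were higher and 10 lower in the controls collected at 2 h, 30.8% against 35.3% of all probe sets (11.5% higher against 18.1%, 19.2% lower against 17.2%). In depolarized cultures 6 were higher and 15 lower, 40.4% against 41.0% of all probe sets (11.5% against 19.2% higher, 28.8% against 21.8% lower). The median difference of the factors was -0.069 in controls, against -0.041 over all probe sets, and -0.117 in depolarized cultures, against -0.049. In controls 10 of the 52 factors lay wholly higher at 2 h and 23 of 52 wholly lower, against 22.1% and 27.5% of all probe sets. In depolarized cultures the counts were 7 of 52 and 21 of 52, against 21.6% and 28.3%. The share of factors lying wholly lower was thus above that of all probe sets in both. These comparisons share arrays with the treatment comparisons, so each has to be read by its own values.

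The count of 16 in controls was 10 without control replicate 2, 9 without control replicate 3 and 9 without control replicate 5. Under quantile normalization 4 were higher and 20 lower, and after removal of a loess trend 6 were higher and 17 lower, so the balance of higher and lower factors in the controls moved with the scaling.

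**Figure D4:**
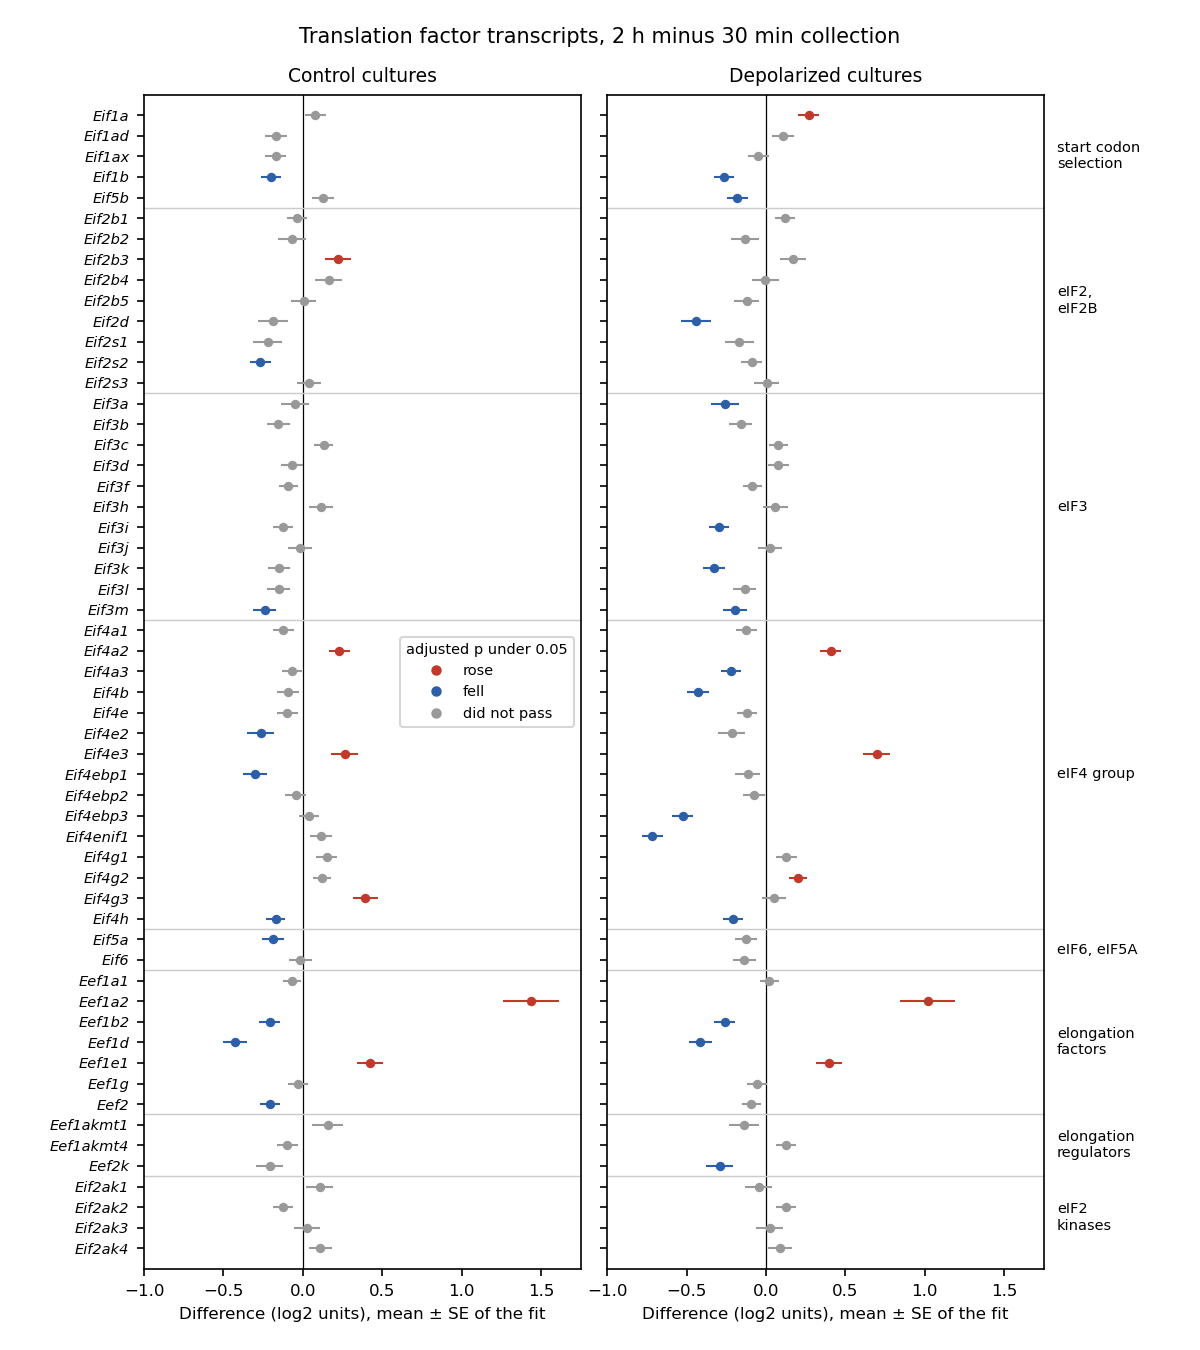
Differences between cultures collected at 2 h and at 30 min (log2 units, point with SE of the fit) for 56 genes grouped by role, controls on the left and depolarized cultures on the right; red and blue points passed the test as higher and lower at 2 h, grey points did not. Eef1a2 lies farthest to the right in both panels (1.44 and 1.02), and Eif4enif1 and Eif4ebp3 are blue on the right alone (-0.72 and -0.52).

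Eef1a2, the eEF1A gene of mature neurons and muscle, differed most. Controls read 8.22, 8.51 and 8.65 at 30 min and 9.81, 10.17 and 9.70 at 2 h, and depolarized arrays read 9.01, 8.20 and 8.50, then 9.40, 9.53 and 9.83. The collections were apart in both, by 1.44 (SE 0.174, 2.71-fold, adjusted p = 1.04e-05) and 1.02 (SE 0.174, 2.03-fold, adjusted p = 0.000226), and both calls held without any single array. Eef1a2 did not pass for depolarization at 30 min (0.11, 95% interval -0.26 to 0.48) or 2 h (-0.31, 95% interval -0.68 to 0.06). Beside it, 9 of 9 measured neuronal markers were higher in the controls collected at 2 h (array means 11.47 to 11.51 against 10.35 to 10.58) and 8 of 9 in depolarized cultures, and 6 of 7 markers of dividing progenitors were lower in controls (10.54 to 10.75 against 11.13 to 11.27) and 5 of 7 in depolarized cultures. Of 5 oligodendrocyte-lineage markers, 4 were lower at 2 h in controls (array means 7.98 to 8.10 against 8.67 to 8.78) and 4 in depolarized cultures, Olig1 by most (-2.45 and -2.20). In the controls 4 of 6 dopaminergic markers were also higher, and 1 of 7 astrocyte markers was higher and 3 lower. Over all probe sets 18.1% were higher and 17.2% lower at 2 h in controls, and 19.2% and 21.8% in depolarized cultures. Of the 46 markers 63.0% were called in controls, against 35.3% of all probe sets, and 52.2% in depolarized cultures, against 41.0%. The part of these markers in the differences between collections was not tested.

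Among other elongation genes, Eef1d, Eef1b2 and Eef1e1 differed by collection in the same direction in controls and depolarized cultures. Eef1d, part of the eEF1A exchange complex, read 12.36 to 12.47 in the 30 min controls and 11.88 to 12.08 in the 2 h controls (-0.43, SE 0.074, adjusted p = 0.000334), and the depolarized difference was -0.41 (adjusted p = 0.000359). Eef1b2, of the same complex, was lower by smaller amounts (-0.21, adjusted p = 0.0239 and -0.26, adjusted p = 0.00541). Eef1e1, which encodes a protein of the multi-tRNA synthetase complex, read 10.78, 10.62 and 10.79 at 30 min and 11.20, 11.12 and 11.15 at 2 h in controls (0.42, SE 0.083, adjusted p = 0.000919), with 0.40 in depolarized cultures (adjusted p = 0.00123). In each of these the 2 h arrays lay wholly apart from the 30 min arrays. The means of Eef2 were 12.91 at 30 min and 12.70 at 2 h in controls, with the arrays apart. In depolarized cultures they were 12.91 and 12.82, and the arrays overlapped.

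Of the initiation genes, Eif4g3 rose most in the controls (0.39, SE 0.076, adjusted p = 0.000759), and Eif4ebp1 (-0.30, adjusted p = 0.00559), Eif2s2 (-0.27, adjusted p = 0.00473) and Eif4e2 (-0.27, adjusted p = 0.0234) were lower at 2 h. Eif4e3 was higher in controls (0.26, adjusted p = 0.0217) and in depolarized cultures (0.70, SE 0.083, adjusted p = 6.67e-06). The control calls of Eif4e3 and Eif4e2 were each lost without 4 of the 12 arrays in turn, control replicates 1, 3, 4 and 6 for Eif4e3 and 1, 3, 5 and 6 for Eif4e2, with adjusted p up to 0.0952 and 0.0807. In depolarized cultures Eif4a2 was higher at 2 h (0.41, adjusted p = 0.000122). There the largest falls were Eif4enif1 (-0.72, SE 0.068, adjusted p = 6.62e-07), Eif4ebp3 (-0.52, adjusted p = 9.39e-06), Eif2d, whose protein can deliver tRNA without eIF2 (-0.44, adjusted p = 0.00128), and Eif4b (-0.43, adjusted p = 0.000158). The dimmer probe set of Eif4b was lower at 2 h by similar amounts in depolarized cultures (-0.49, adjusted p = 5.4e-05) and in controls (-0.45, adjusted p = 0.00014), whereas the brighter one did not pass in controls (-0.09, adjusted p = 0.309), so the probe sets disagree on the controls.

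Other genes of translation control were tested in the same fit. Of 79 measured genes in 9 lists around the factors, 16 rose and 8 fell at 30 min, and 12 rose and 14 fell at 2 h. The called shares were 30.4% against 24.0% of all probe sets and 32.9% against 25.2%. Rises were 20.3% against 10.8% at 30 min and 15.2% against 9.51% at 2 h, and falls 10.1% against 13.1% and 17.7% against 15.7%, and these shares are the background for each list that follows. In the list on eIF2 phosphorylation and its feedback, 6 of 14 rose and 0 fell at 30 min, and 6 rose and 1, Gcn1, fell at 2 h (median difference 0.21 and 0.23, against 0.014 and -0.001 over all probe sets). Ppp1r15a, the stress-induced subunit that returns eIF2 to its unphosphorylated form, rose by 1.51 (SE 0.162) and 0.94, the stress transcription factor gene Ddit3 by 1.48 (SE 0.106) and 0.55, and Atf4, whose translation is favoured when eIF2 is phosphorylated, by 0.82 (SE 0.084) and 0.46, all with adjusted p of at most 0.00124.

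Genes of termination and ribosome recycling rose in 4 of 6 cases at 30 min and in 2 of 6 at 2 h, with 1 fall at 30 min, where 10.8% and 9.51% of all probe sets rose; a list of 6 genes gives no precise share. Etf1, the release factor that recognizes stop codons, rose by 0.79 (SE 0.079, adjusted p = 1.81e-06) and 0.68 (adjusted p = 1.99e-05). The ribosome rescue gene Hbs1l rose at 30 min (0.34, adjusted p = 0.00214; 0.02 at 2 h, adjusted p = 0.885), and Gspt2, a release factor partner, fell at 30 min (-0.40, adjusted p = 0.00202; 0.04 at 2 h, adjusted p = 0.798).

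In the mTORC1 and S6 kinase list 3 of 11 rose and 3 fell at 30 min, and 0 rose and 5 fell at 2 h. Over all probe sets 10.8% rose and 13.1% fell at 30 min and, with falls the more frequent, 9.51% rose and 15.7% fell at 2 h. Mtor, the kinase gene, fell by 0.37 (adjusted p = 0.000858) and then by 0.56 (adjusted p = 3.57e-05), and its partner Mlst8 fell by 0.44 (adjusted p = 0.000196) and then by 0.24 (adjusted p = 0.0199). Ddit4, an inhibitor of mTORC1, rose at 30 min (0.33, adjusted p = 0.00121) and gave -0.14 at 2 h (adjusted p = 0.146). The falls in this list at 2 h also took in Tsc1 and Tsc2, which encode the brake on mTORC1, so genes of opposite roles fell together.

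Among 7 regulators of eIF4E and eIF4A, 2 rose and 1 fell at 30 min and 1 rose and 1 fell at 2 h. The helicase gene Ddx3x rose by 0.58 (adjusted p = 1.17e-05) and 0.41 (adjusted p = 0.000466), Cyfip2, whose protein family represses eIF4E in neurons, rose by 0.21 at 30 min (adjusted p = 0.0442), and the scanning helicase gene Dhx29 fell by 0.37 (adjusted p = 0.00788) and then by 0.32 (adjusted p = 0.02). Of 5 poly(A)-binding genes 0 passed at 30 min by limma (3 at an unadjusted p under 0.05, 1 by the ordinary test) and 2 fell at 2 h, Paip1 by 0.56 (adjusted p = 6.97e-05) and Paip2 by 0.19 (adjusted p = 0.0314); both encode partners of poly(A)-binding protein, the former stimulating and the latter inhibiting translation. Larp1 did not pass (0.17 and 0.02).

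The remaining lists ranged from 0 calls to 4 of 7 genes at a given time. In a list of 4 genes named non-canonical initiation, Nat10, an RNA acetyltransferase gene, rose at 30 min (0.80, adjusted p = 3.88e-06) and Pop7 fell (-0.45, adjusted p = 0.00195). That is 2 of 4 against 24.0% of all probe sets, with 0 calls at 2 h by limma or the ordinary test and 1 at an unadjusted p under 0.05. Denr of the same list did not pass (0.09 and 0.15, adjusted p = 0.456 and 0.14). The calls describe Nat10 and Pop7 and not non-canonical initiation as a process. Of 7 genes that make diphthamide on eEF2 or hypusine on eIF5A, 0 passed at 30 min by limma (4 at an unadjusted p under 0.05, 2 by the ordinary test), while at 2 h 1 rose and 3 fell (57.1% called, against 25.2% of all probe sets), the falls being Dph5 by 0.59 (adjusted p = 0.00114), Dph6 by 0.28 (adjusted p = 0.00956) and Dnajc24 by 0.25 (adjusted p = 0.0153). Of 21 cytosolic aminoacyl-tRNA synthetase genes, 0 rose and 2 fell at 30 min, Aars1 among them (-0.49, adjusted p = 8.14e-05), and 2 rose and 2 fell at 2 h, the rises being Iars1 (0.72, adjusted p = 0.000384) and Cars1 (0.48, adjusted p = 0.000179). Of 4 mitochondrial translation factor genes 0 passed at either time by limma or the ordinary test, with 1 at 30 min and 0 at 2 h at an unadjusted p under 0.05, the largest difference being -0.23 in Mrrf at 30 min (adjusted p = 0.0766).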

How the data were processed

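Each of the 12 samples was hybridized to its own single-colour Affymetrix array for rat transcripts. The authors deposited log2 values per probe set, and the submitters' processing notes name RMA with no version number; the log2 scale was read from the values, and which arrays were normalized together is not given in the sources used here. Of 15923 probe sets, 57 array controls were left out. Symbols come from the platform annotation (1 symbol for 12783 tested probe sets, several for 312, none for 2771).

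Group means of all 4 groups were fitted together with limma 3.58.1 (R 4.3.3) and empirical Bayes moderation, with two-sided p-values and Benjamini-Hochberg adjustment over 15866 probe sets. The fit was also run on simulated data with independent noise for every value. Such data lack deviations that probe sets of an array share, so that run cannot show how the fit behaves under them. Members and lists were chosen with earlier results of these data known. Values per array are given for up to 8 rises and 8 falls per treatment comparison, all eIF2 kinases and Eif4e, Eif4g1, Eif4ebp1, Eif2s1, Eef1a1, Eef2 and Eef2k; other comparisons name up to 4 each way and lists up to 3 genes by smallest p, and other genes were named with their values in view. Alternatives were other scalings, filters on dim probe sets, array weights, other priors and tests, other probe sets, leaving out each array, stricter thresholds, and a block for the replicate number. Same-numbered control and depolarized arrays deviated together with correlations of -0.322 to 0.236, so the numbers were not taken as pairs. Over all control and depolarized arrays of a collection time the correlations ran from -0.415 to 0.354. The check bears on the numbering only. Arrays may share an embryo group in another order, and such sharing was not modelled. Precision is limited by the 3 arrays per group; array values carry no read depth.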

Additional observations from a re-analysis of the deposited data

Results flagged for a closer look

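In 6 of 52 factors the test of the difference itself found that the response at 2 h differed from the response at 30 min (limma, adjusted over all probe sets). That is 11.5%, against 13.0% of all probe sets, so the factors did not exceed the whole array. The differences, 2 h minus 30 min in log2 units, were -0.83 for Eif4enif1, -0.56 for Eif4ebp3, -0.34 for Eif4g3, -0.33 for Eif4b, -0.31 for Eif5b and 0.43 for Eif4e3. Those of Eif4enif1 and Eif4ebp3 held without any single array, whereas the other 4 lost their call without 2 to 9 of the 12 arrays in turn. At the dimmer probe set of Eif4b the difference was -0.04 (adjusted p = 0.888 by limma). All 6 share their controls with the comparison of collection times in controls, in which Eif4g3 and Eif4e3 rose by 0.39 and 0.26.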

How the results depend on the processing

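Over 62 named results and 1529 alternative values, 1404 kept the call or its absence, 120 lost the call, 3 gained it and 2 called results reversed in sign. Some alternatives could hardly change a result. A fit may leave out an array outside the comparison, and a stricter threshold cannot give an uncalled result a call. The 1404 therefore does not measure how firm the called results are. Changes of sign in results called in neither setting were counted as kept. Eif2ak1 at 30 min, for example, ran from -0.08 to 0.09 with each array left out in turn. The reversals were the dimmer Eif4e probe set, at -0.02 at 30 min and -0.07 at 2 h. The numbers of changed factors at 30 min, at 2 h, in the response difference, in controls and in depolarized cultures over time were 11, 10, 6, 16 and 21. At a threshold of 0.01 they were 7, 6, 2, 6 and 14, and with at least 0.25 log2 units required the counts at 30 min and in controls were 7 and 8. An ordinary equal-variance test left 2 response differences. With each array left out in turn the ranges were 8 to 13, 6 to 12, 3 to 6, 9 to 17 and 16 to 22. With the replicate number as a block the first 3 counts were 11, 9 and 3; the numbers do not pair the samples by the check made, and the block was not run across collection times, where numbers are not shared. A fit of only the groups compared has no version for the response difference. With 3 arrays per group, and no detection calls, small changes and dim probe sets are the least certain.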
